A study of Mus musculus with 2 samples.

Results

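The levels of 9 transcription factors that mark regions of the brain were examined in single cells of the hippocampi of old mice, to show which regions each pool of tissue held. The 9 genes were Lhx2, Irx2, Irx3, Tcf7l2, Pou4f2, Barhl1, Barhl2, Tfap2d and Ebf3. They were taken by symbol from the 19059 genes of the probe panel, and all 9 were found. They had been selected on their UMIs and shares of positive cells in these same libraries, so their levels and the differences between the libraries are descriptions and carry no test. The series held 2 libraries of fixed cells, 1 for each group, and each was made from the pooled hippocampi of 4 C57BL/6 mice. Mice of both groups were 21 months old at the start and were fed for 3 months. The control group received plain chow, and the tomatidine group received a diet with 0.05% tomatidine, a steroidal alkaloid of tomato plants. Since each diet was represented by 1 pool, the diet, the mice and the tissue taken into each pool cannot be told apart in any difference given here. Ranges in parentheses are 95% intervals that cover counting error only.

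After filtering, 15115 control cells and 14502 tomatidine cells remained. Their median depths were 7077 and 7408 unique molecular identifiers (UMIs), the tags that mark single captured molecules. Among kept cells, 262 barcodes occurred in both libraries. The clusters of cells were drawn without the 9 factors and the other regional genes, and were named afterwards from marker lists. In all, 12749 cells fell into neuron-like clusters. The pools also differed outside the neurons. Choroid plexus-like cells numbered 344 in the control pool and 31 in the other, and fibroblast-like cells 285 and 525.

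Regional transcription factors are laid down in the embryo, when the neural tube is partitioned into telencephalon, diencephalon, midbrain and hindbrain, and many stay on in the adult cells of each territory. Lhx2, a LIM homeodomain factor, is needed to form cortex and hippocampus and stays on in telencephalic astrocytes. The Iroquois homeodomain genes Irx2 and Irx3 are known for expression behind the border between prethalamus and thalamus, and Tcf7l2, an HMG-box partner of beta-catenin, is a marker of thalamus, habenula and midbrain. Pou4f2, the paralogs Barhl1 and Barhl2, Tfap2d of the AP-2 family and Ebf3 of the COE family are expressed by sets of midbrain and diencephalic neurons. Hippocampal principal neurons use the vesicular glutamate transporter Slc17a7. Most glutamatergic neurons of thalamus and midbrain use Slc17a6, and inhibitory neurons make GABA through Gad1 and Gad2.

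The 250 bases ahead of the start of Barhl1 (chr2:28916669-28916918, minus strand) and of Barhl2 (chr5:106458167-106458416, minus strand) are shown because these paralogs had the same direction and like sizes of difference between the libraries. They come from the RefSeq promoter table for GRCm38.p6, in which all 9 genes matched, with 14 windows. Matches to the E-box letters CANNTG are in capitals.
Barhl1: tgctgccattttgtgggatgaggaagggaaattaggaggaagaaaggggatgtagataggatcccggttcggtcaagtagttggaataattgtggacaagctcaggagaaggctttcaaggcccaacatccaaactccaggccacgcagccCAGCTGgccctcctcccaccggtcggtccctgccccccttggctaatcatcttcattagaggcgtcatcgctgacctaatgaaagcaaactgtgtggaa
Barhl2: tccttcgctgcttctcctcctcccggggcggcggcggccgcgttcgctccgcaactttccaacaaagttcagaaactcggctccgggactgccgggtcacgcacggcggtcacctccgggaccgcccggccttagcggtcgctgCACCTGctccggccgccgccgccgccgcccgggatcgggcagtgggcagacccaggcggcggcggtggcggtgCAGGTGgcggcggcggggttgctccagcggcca
The Barhl1 window held 1 match to CANNTG and the Barhl2 window held 2. At least 1 such match stood in 5 of the 14 windows of the 9 genes, and in 66.2% of all 32851 windows of 250 bases. The AP-2 letters GCCNNNGGC stood in 4 of the 14 windows and in 13.7% of all windows. The homeodomain core TAATTA and the TCF/LEF core CTTTGAT stood in 0 of the 14 on either strand, and in 4.84% and 3.21% of all windows. Matches to different motifs could overlap, and none was linked to a measurement here.

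In the annotation of mm10, the build of the deposited files, Lhx2 lies on chromosome 2 from 38339281 to 38369733, Irx2 on chromosome 13 from 72628820 to 72634198, and Irx3 on chromosome 8 from 91798525 to 91802067. Tcf7l2 lies on chromosome 19 from 55741820 to 55933654, Pou4f2 on chromosome 8 from 78433010 to 78436645, and Barhl1 on chromosome 2 from 28907679 to 28916668. Barhl2 lies on chromosome 5 from 106452523 to 106458166, Tfap2d on chromosome 1 from 19103022 to 19166346, and Ebf3 on chromosome 7 from 137193673 to 137314445. All are protein-coding genes counted as a whole, so the values do not separate exons or transcripts.

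Neuron-like cells were sorted by transmitter, and the makeup differed between the pools. A cell took the transmitter with at least 3 UMIs and at least 2/3 of the UMIs of Slc17a7, Slc17a6 and Gad1 plus Gad2. Slc17a7 neurons were 77.4% of 6252 neuron-like control cells and 67.5% of 6497 tomatidine cells, a difference of −9.86 percentage points (−11.4 to −8.32). Slc17a6 neurons numbered 313 (5.01%, 4.48 to 5.58) and 728 (11.2%, 10.4 to 12), a difference of 6.20 points (5.26 to 7.14). Gad1 plus Gad2 neurons, called Gad neurons from here on, numbered 656 (10.5%) and 943 (14.5%), a difference of 4.02 points (2.88 to 5.17). The tomatidine pool thus held the larger share of Slc17a6 and Gad neurons and the smaller share of Slc17a7 neurons.

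Of the 9 factors, 8 were higher in Slc17a6 than in Slc17a7 neurons in both libraries, and Lhx2 was not. The unit is CPM, the UMIs of a gene divided by all UMIs of the class in that library and scaled to the customary total. All 8 were at least 4-fold higher in Slc17a6 than in Slc17a7 neurons in each library, as were 4.16% of the 14899 genes tested over the same classes. The factors were picked for such values, so nothing is read from that contrast. The smallest of these ratios was 11.3, for Pou4f2 in the control library, and the largest was 221, for Tfap2d in the control library. Lhx2 was near even between the classes, with ratios of 0.934 in the control and 0.897 in the tomatidine library.

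**Figure D1:**
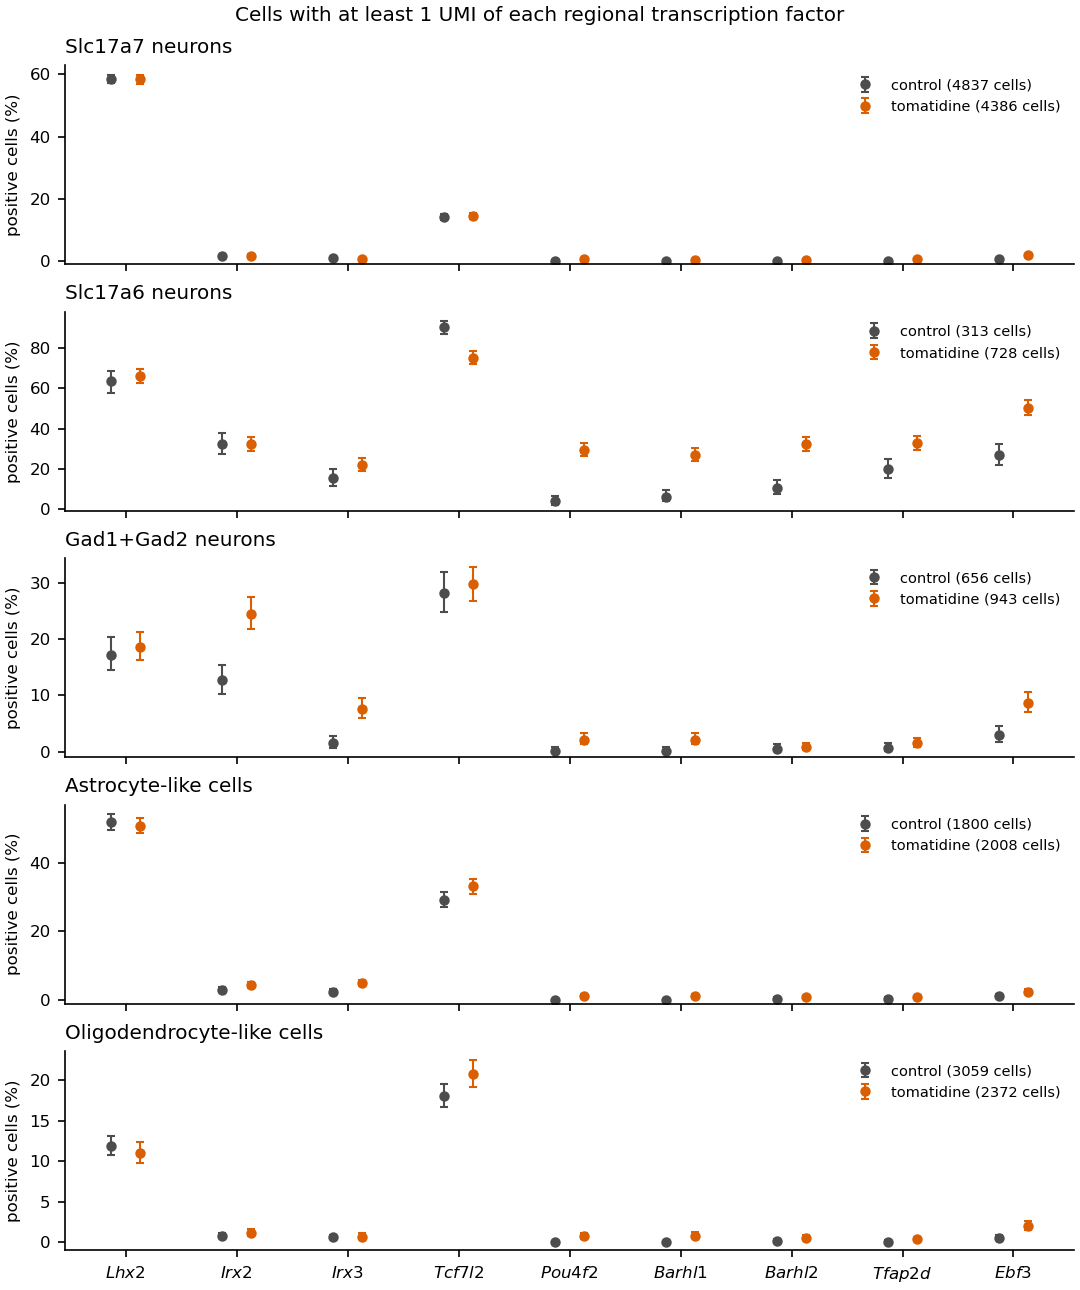
Share of cells with at least 1 UMI of each factor (vertical axis, percent) in 5 cell classes, for the control library (grey) and the tomatidine library (orange). Points are shares, bars are 95% binomial intervals for counting error, and the vertical scale differs between panels. Lhx2 is near 58.5% in Slc17a7 neurons of both libraries, and Pou4f2 in Slc17a6 neurons is at 3.83% in the control and 29.5% in the tomatidine library.

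Lhx2 was found in like shares of the Slc17a7 neurons of both pools, and it did not set them apart from Slc17a6 neurons. It had 8473 UMIs in control and 7759 UMIs in tomatidine Slc17a7 neurons, with 58.5% of cells positive in each, where positive means at least 1 UMI. Its level there was 77.1 CPM and 80.6 CPM, a log2 ratio of tomatidine over control of 0.07 (0.02 to 0.11). The sign of this small ratio turned to −0.0096 as a mean over cells and to −0.080 with stricter thresholds on cells, which dropped those with over 6000 genes. In Slc17a6 neurons Lhx2 had 795 and 1618 UMIs, with 63.6% and 66.1% of cells positive. That is 72.0 and 72.4 CPM and a log2 ratio of 0.01 (−0.12 to 0.13). Gad neurons had the lowest level among these neurons, where 17.2% and 18.7% of cells were positive. Oligodendrocyte-like cells, which serve here as a class without the gene, were positive for Lhx2 at 11.9% and 11%, with median depths of 5332 and 4904 UMIs. At a common depth of 1500 UMIs per cell, Slc17a7 neurons were at 11.2% in both libraries and oligodendrocyte-like cells at 3.77% and 3.55%. Lhx2 in Gad neurons, at 3.14% and 2.36% on that scale, lay below the oligodendrocyte-like share over the class as a whole. Single Gad neurons held up to 26 and 27 Lhx2 UMIs, against 8 and 12 in oligodendrocyte-like cells, and the Gad neurons of cluster 16 were at 3.98% and 3.84%.

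Tcf7l2, the nuclear effector of Wnt signals, was the most widely detected of the factors in Slc17a6 neurons and was lower in those of the tomatidine pool. It had 9596 UMIs in 313 control cells and 13794 UMIs in 728 tomatidine cells. The shares of positive cells were 90.7% (87.0 to 93.7) and 75.4% (72.1 to 78.5). The level was 869 CPM and 617 CPM, a log2 ratio of −0.49 (−0.53 to −0.46). After thinning to 1500 UMIs the shares were 60.6% and 42.5%, so the control library stayed higher at a common depth. Over all Gad neurons 28.2% and 29.7% of cells were positive for Tcf7l2, with a log2 ratio of 0.01 (−0.06 to 0.08), but within cluster 5 the control Gad neurons were higher. Microglia-like cells, used as the class without the gene because the oligodendrocyte lineage uses Tcf7l2, were at 18.3% and 17.9%, with median depths of 3124.5 and 2875.5 UMIs. At 1500 UMIs per cell microglia-like cells were at 9.03% and 8.76% and Gad neurons at 10.9% and 10.4%.

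Irx2 was found in similar shares of Slc17a6 neurons of the 2 pools, while the share with Irx3 was higher in the tomatidine pool. Irx2 had 464 UMIs in control and 729 UMIs in tomatidine Slc17a6 neurons, with 32.3% and 32.4% of cells positive. Its level there was 42 and 32.6 CPM, a log2 ratio of −0.37 (−0.54 to −0.20), which shrank to −0.06 with the stricter thresholds. Irx3 had 108 and 291 UMIs, with 15.3% and 22.0% of cells positive, a difference of 6.64 points (1.39 to 11.4), and a log2 ratio of 0.41 (0.09 to 0.74). At 1500 UMIs per cell, Irx2 was at 5.97% and 4.49% and Irx3 at 1.69% and 1.94% of Slc17a6 neurons. In oligodendrocyte-like cells at the same thinned depth, Irx2 was at 0.20% and 0.36% and Irx3 at 0.15% and 0.14%.

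In Gad neurons both Iroquois genes were higher in the tomatidine library. Irx2 had 256 and 685 UMIs, with 12.7% (10.2 to 15.4) and 24.5% (21.8 to 27.4) of cells positive and a log2 ratio of 0.92 (0.71 to 1.13). Irx3 had 11 and 137 UMIs, with 1.52% and 7.64% of cells positive and a log2 ratio of 3.14 (2.25 to 4.17). In Slc17a7 neurons Irx2 went the other way, with 354 and 155 UMIs and a log2 ratio of −1.0 (−1.28 to −0.72), while the shares of positive cells were 1.63% and 1.85%. Of those UMIs, 319 in the control and 74 in the tomatidine library came from 58 and 19 cells of cluster 31, described below. Within the Slc17a7 neurons of that cluster the level was close, at 244 and 239 CPM. With a transmitter call at 5 UMIs and 80%, the log2 ratio of Irx2 in Slc17a7 neurons was −0.17.

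Pou4f2, a POU-domain factor best known from retinal ganglion cells, had the highest log2 ratio of CPM between the pools among the 9 factors in Slc17a6 neurons. It had 25 UMIs in 12 positive control cells and 1308 UMIs in 215 positive tomatidine cells. The shares of positive cells were 3.83% (2.00 to 6.60) and 29.5% (26.2 to 33.0), a difference of 25.7 points (21.5 to 29.5), or 13.9 points with the stricter thresholds. The level was 2.26 and 58.5 CPM, a log2 ratio of 4.69 (4.12 to 5.32). The highest single cell held 5 UMIs in the control and 53 UMIs in the tomatidine library. Thinned to 1500 UMIs, the shares were 0.43% and 6.88%.

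The paralogs Barhl1 and Barhl2 followed in the log2 ratio of CPM, and both are homeodomain factors of the BarH-like family. Barhl1 had 65 UMIs in control and 771 UMIs in tomatidine Slc17a6 neurons, with 6.07% and 26.9% of cells positive and a log2 ratio of 2.55 (2.18 to 2.94). Barhl2 had 73 and 744 UMIs, with 10.5% and 32.1% of cells positive and a log2 ratio of 2.33 (1.98 to 2.70). The intervals of the 2 paralogs overlapped, while that of Pou4f2 lay above both. These intervals take each UMI as independent, although many UMIs came from the same cells, so the order is a description only. After thinning, Barhl1 was at 1.06% and 5.34% and Barhl2 at 1.05% and 4.58%. The tomatidine library was higher for both genes with and without thinning.

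Tfap2d and Ebf3 had smaller log2 ratios of CPM than these, although the share of Ebf3-positive cells differed by 23.6 points (17.3 to 29.4). Tfap2d, also known as AP-2 delta and expressed in midbrain neurons, had 200 UMIs in control and 586 UMIs in tomatidine Slc17a6 neurons. It was positive in 19.8% and 32.8% of cells, with a log2 ratio of 0.53 (0.30 to 0.77), which ranged from 0.26 to 0.85 with the transmitter call and the thresholds on cells. Ebf3, a helix-loop-helix factor of neuronal differentiation, had 538 and 2085 UMIs, with 26.8% and 50.4% of cells positive and a log2 ratio of 0.94 (0.80 to 1.08). In Gad neurons Ebf3 had 96 and 549 UMIs and a log2 ratio of 2.01 (1.70 to 2.34), with 2.90% and 8.70% of cells positive. That ratio was 1.24 with the stricter thresholds. Ebf3 was therefore higher in both neuron types of the tomatidine pool.

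In Slc17a7 and Gad neurons the UMIs of Pou4f2, both Barhl genes and Tfap2d were few and near background. Neurons with mixed transmitters were not, and in the tomatidine library 5.51% of these 399 cells were positive for Pou4f2, 5.51% for Barhl1, 5.76% for Barhl2 and 6.52% for Tfap2d. In oligodendrocyte-like cells, Pou4f2 was found in 0 of 3059 control cells, which allows a share of up to 0.0981% (3 counts of the total), and in 0.72% of tomatidine cells. Barhl1 was found there in 0.03% and 0.76%, Barhl2 in 0.13% and 0.46%, Tfap2d in 0.07% and 0.34%, and Ebf3 in 0.52% and 1.98%. The background of all 5 genes was thus higher in the library that held more neurons with them. At 1500 UMIs per cell, Pou4f2 was found in 0.20% of tomatidine Gad neurons and 0.08% of tomatidine Slc17a7 neurons, against 0.18% of oligodendrocyte-like cells. Gad neurons of the control library held 1 UMI each of Pou4f2 and Barhl1, against 58 and 46 UMIs in the tomatidine library. Those ratios, 5.36 (2.82 to 10.7) and 5.02 (2.47 to 10.4) on the log2 scale, rest on a single UMI each.

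Counts of factors past 2-fold between the pools are given beside the same count over all genes tested. Past 2-fold in Slc17a6 neurons lay 3 of the 9 factors, all higher with tomatidine, against 5.97% of 13328 genes past 2-fold either way. In Gad neurons 5 of 9 lay past 2-fold, all higher, against 3.11% of 13521 genes. In Slc17a7 neurons 4 of 9 did, all higher, against 2.1% of 14661 genes, and these 4 were Pou4f2, Barhl1, Barhl2 and Tfap2d at 52, 29, 15 and 41 tomatidine UMIs. In astrocyte-like cells 4 of 9 did, all higher, against 1.34% of 13182 genes. These 4 were Pou4f2, Barhl1, Irx3 and Ebf3, at 24, 30, 118 and 69 tomatidine UMIs. Their tomatidine levels were 1.87, 2.34, 9.19 and 5.38 CPM, against 1.33, 1.33, 1.13 and 4.46 CPM in oligodendrocyte-like cells. Over all kept cells 5 of 9 lay past 2-fold, all higher, against 3.12% of 15710 genes. The median log2 ratio of the factors was 0.53 in Slc17a6 neurons, 1.42 in Gad neurons and 0.42 in Slc17a7 neurons, beside 0.05 for all genes in each. The factors were picked with these contrasts in view, so nothing is read from the counts.

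**Figure D2:**
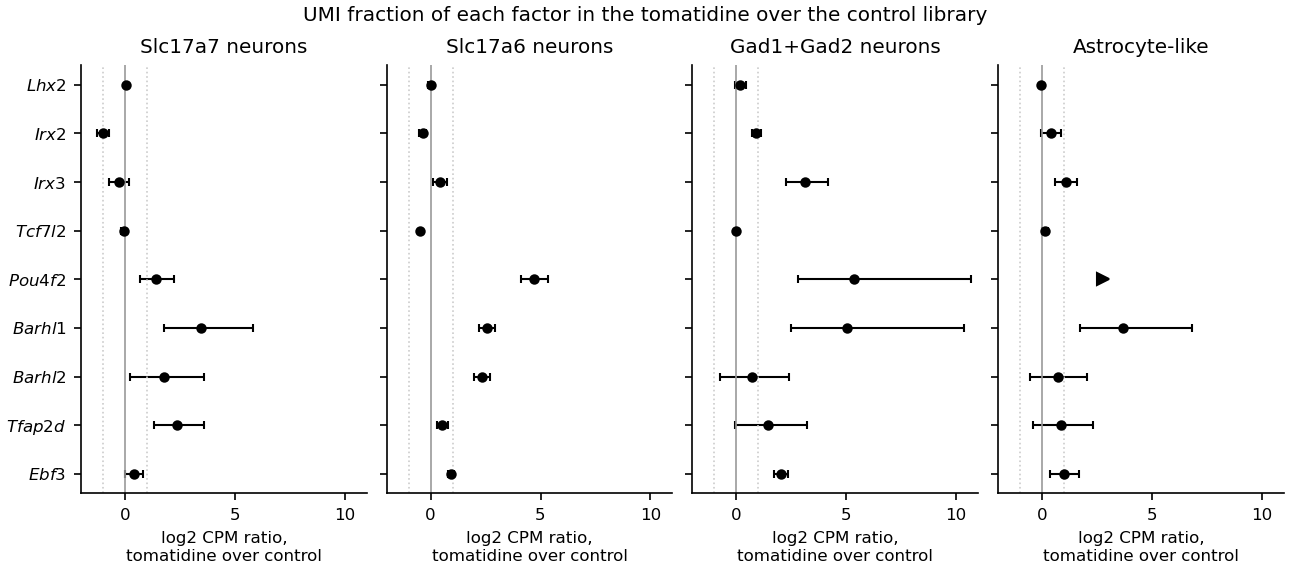
Log2 ratio of CPM, tomatidine over control library (horizontal axis), for each factor in 4 cell classes, with 95% intervals for counting error. Solid lines mark no difference and dotted lines a 2-fold one, and the triangle is the lower bound for Pou4f2 in astrocyte-like cells, where the control held 0 UMIs. Pou4f2 in Slc17a6 neurons is at 4.69 and Tcf7l2 there at −0.49.

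Most UMIs of Pou4f2, Barhl1, Barhl2, Tfap2d and Ebf3 lay in 1 cluster, while those of Lhx2 were spread, with 14.9% in its leading cluster. Cluster 5, led over other neurons by Baiap3, Adcy7 and Mab21l1, held 305 control and 992 tomatidine cells, of which 618 were Slc17a6 and 563 Gad neurons. It held 70.0% of all Pou4f2 UMIs, 70.9% of Barhl1, 62.7% of Barhl2, 64.3% of Tfap2d, 57.1% of Ebf3, 48.3% of Irx2 and 33.6% of Irx3. Cluster 26, with 58 and 208 cells, held a further 14.9% of Pou4f2 and 20.2% of Barhl2 UMIs. The genes leading cluster 26 over other neurons were oligodendrocyte genes, among them Mag and Gjb1. The summed oligodendrocyte markers there were at 12911 and 11133 CPM, against 848 and 810 CPM in cluster 5. The part of such RNA in the values of cluster 26 was not tested, and without that cluster the difference in the Slc17a6 share was 5.11 points.

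**Figure D3:**
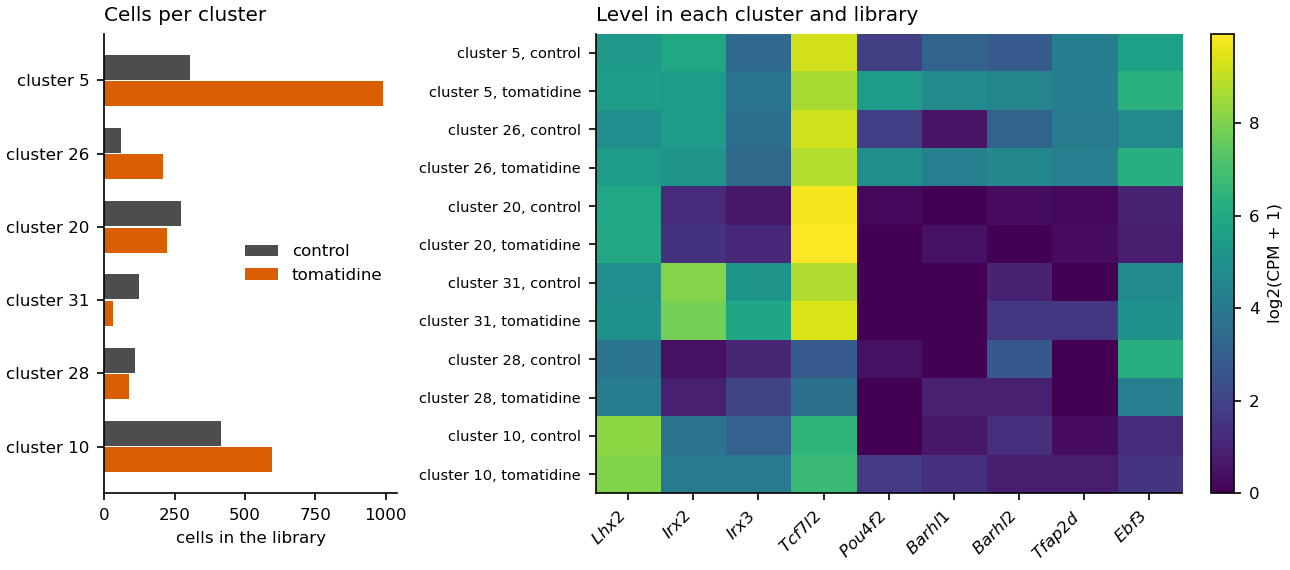
Cells per cluster in each library (left, bars from 0) and level of each factor (right, colour, log2 of CPM plus 1) for 5 neuron-like clusters and for astrocyte-like cluster 10. Clusters 5 and 26 hold more tomatidine than control cells, cluster 31 holds 125 control and 33 tomatidine cells, and Tcf7l2 is highest in cluster 20.

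Cluster 20 held the other main group of Slc17a6 neurons, with Tcf7l2 in every cell and hardly any other factor but Lhx2. It was led by Prkcd, Synpo2, Tnnt1 and Gbx2, of which Gbx2 is a thalamic homeobox gene. The cluster held 274 control and 224 tomatidine cells, of which 258 were Slc17a6 neurons. Its values are for the whole cluster unless stated. Tcf7l2 had 10498 and 7290 UMIs there, which is 888 and 979 CPM, and was positive in 274 of 274 and 224 of 224 cells. Lhx2 was positive in 66.4% and 64.3%, and in 78.7% and 74.4% of the Slc17a6 neurons of the cluster. Pou4f2 had 2 UMIs in the control and 0 in the tomatidine library, Barhl1 0 and 3, Barhl2 3 and 0, and Tfap2d 2 and 2. The numbers of cells and the level of Tcf7l2 were thus close between the pools, unlike those of cluster 5. Among Slc17a6 neurons, cells with Tcf7l2 and without Pou4f2, Barhl1, Barhl2 and Tfap2d numbered 205 (65.5%) in the control and 198 (27.2%) in the tomatidine library.

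Cluster 31 was the cluster with the highest Irx2, and most of its cells were from the control library. It was led by Chrnb4, Gng8 and Gpr151, genes known from the medial habenula, and held 125 and 33 cells. Irx2 had 591 and 112 UMIs there, which is 272 and 234 CPM, with 74.4% and 63.6% of cells positive. Tcf7l2 was positive in 100 of 125 and 26 of 33 of its cells, and Irx3 in 24.0% and 27.3%. Cluster 28, of 110 control and 89 tomatidine cells, held Ebf3 at 76.8 and 19.1 CPM, in 19 and 6 cells.

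Within the Slc17a6 neurons of cluster 5 the factors differed unequally between the pools. These were 129 control and 489 tomatidine cells. Pou4f2 was positive in 8.53% and 35.4%, Barhl1 in 14% and 32.5%, and Barhl2 in 16.3% and 37.0%. Tfap2d was near even, at 38.0% and 37.8%, and so was Irx3, at 27.9% and 26%. Irx2 was lower with tomatidine, at 53.5% and 38.9%, and so was Tcf7l2, at 84.5% and 68.9%. Ebf3 was positive in 47.3% and 60.5% of these cells. The Gad neurons of the cluster, 150 and 413 cells, had Irx2 at 40.7% and 44.3% and Irx3 at 4.0% and 13.3%. Tcf7l2 was lower with tomatidine in these Gad neurons too, at 54.0% (45.7 to 62.2) and 39.7% (35.0 to 44.6) of cells and at 505 and 268 CPM. The shares with Irx2 were thus closer within cluster 5 than over all Gad neurons.

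**Figure D4:**
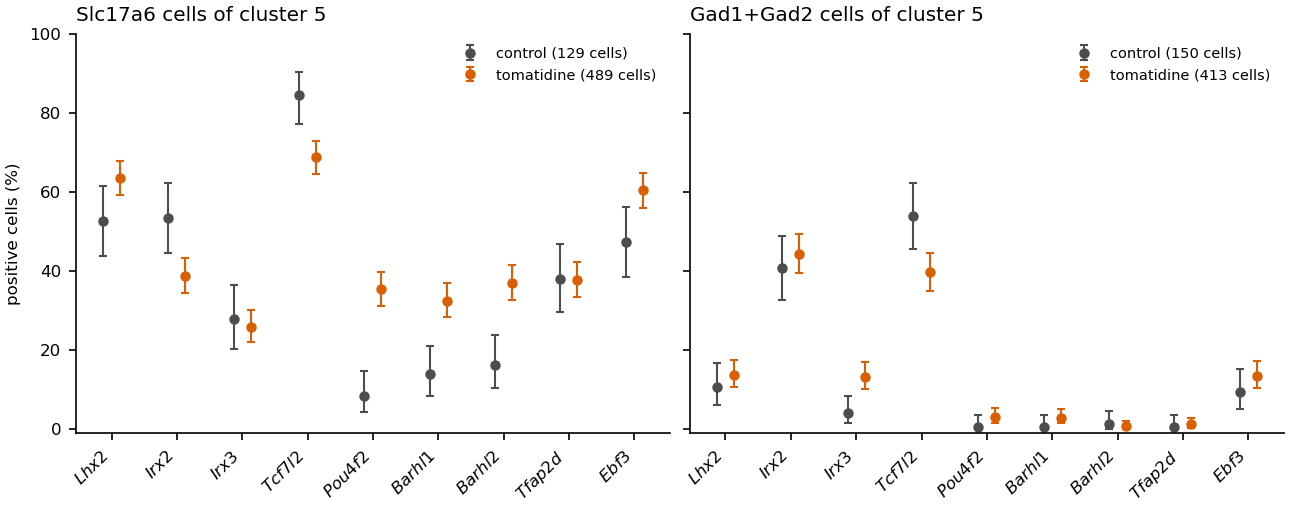
Share of positive cells of each factor (vertical axis, percent) in the Slc17a6 neurons and in the Gad1 plus Gad2 neurons of cluster 5, by library, with 95% binomial intervals for counting error. In Slc17a6 neurons Pou4f2 is at 8.53% in the control and 35.4% in the tomatidine library, while Tfap2d is at 38.0% and 37.8%.

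The factors overlapped in single cells in part. At least 1 of Pou4f2, Barhl1, Barhl2 and Tfap2d was found in 94 of 313 control (30.03%, 25 to 35.4) and 487 of 728 tomatidine Slc17a6 neurons (66.9%, 63.3 to 70.3). At least 2 of them were found in 26 (8.31%) and 282 (38.7%), and all 4 in 0 and 10 cells. In tomatidine Slc17a6 neurons, Barhl2 was found in 56.7% of 215 cells with Pou4f2 and in 21.8% of 513 cells without it. Barhl1 was found in 42.8% and 20.3% of the same cells, and Ebf3 in 65.1% and 44.2%. Tcf7l2 went the other way, at 68.8% and 78.2%. Tfap2d was found in 23.0% of cells with Barhl1 and in 36.5% of cells without it. Irx2 was found in 56.9% of cells with Irx3 and in 25.5% without it, and in the control library in 81.3% and 23.4%. Deeper cells show more of every gene, so such shares also follow depth, whose part was not tested.

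Astrocyte-like cells numbered 1800 in the control and 2008 in the tomatidine library. Lhx2 was close between the pools over all these cells but not in cluster 10, and Irx3 was higher in the tomatidine pool. In clusters 10 and 25 together, the astrocyte-like clusters with few neuron-marker UMIs, the Lhx2-positive share differed by −10.2 points (−15.3 to −5.03). Over all astrocyte-like cells it differed by −1.09 points (−4.26 to 2.09). Lhx2 had 2751 and 3107 UMIs, with 51.8% and 50.7% of cells positive, at 246 and 242 CPM. Irx3 had 48 and 118 UMIs, with 2.33% and 4.98% of cells positive and a log2 ratio of 1.10 (0.60 to 1.61). Irx2 had 73 and 112 UMIs and a log2 ratio of 0.42 (−0.02 to 0.86), which includes no difference. Either Iroquois gene was found in 89 (4.94%) and 164 (8.17%) cells, a difference of 3.22 points (1.65 to 4.79). At 1500 UMIs per cell the shares were 2.12% and 3.4%, a difference of 1.27 points (0.15 to 2.38). Pou4f2 had 0 UMIs in control and 24 UMIs in tomatidine astrocyte-like cells, at least 6.96-fold higher against a floor of 3 counts. Its 1.15% of positive tomatidine cells stood beside 0.72% in oligodendrocyte-like cells and 0.74% in microglia-like cells.

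Astrocyte-like cells with an Iroquois gene had Lhx2 less often in both pools. Lhx2 was positive in 28.1% (19.1 to 38.6) of control cells with Irx2 or Irx3 and in 53.1% (50.7 to 55.5) of those without. In the tomatidine library the shares were 26.2% (19.7 to 33.6) and 52.9% (50.6 to 55.2). The cells with an Iroquois gene were the deeper ones, with medians of 5203 against 3673 UMIs in the control and 5062.5 against 4264.5 UMIs in the tomatidine library. Cluster 10, led by Cyp4f15, Slc7a10 and Atp13a4, showed the widest gap, with 28% and 74.2% in the control and 18.9% and 61.9% in the tomatidine library. In cluster 10 as a whole Lhx2 was positive in 68.7% and 55.4% of cells, a difference of −13.2 points (−19.1 to −7.16). The cells of cluster 10 had median depths of 6278 and 5353 UMIs, and the part of depth was not tested. Lhx2 was at 332 and 295 CPM in its cells without an Iroquois gene, and at 128 and 63.6 CPM in the rest. In cluster 2, the largest astrocyte-like cluster, Lhx2 was positive in 43.3% and 45.3%. Cluster 2 also held neuron markers at 4849 and 4965 CPM, against 1910 and 1813 CPM in cluster 10, and the part of neuronal RNA in its values was not tested.

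**Figure D5:**
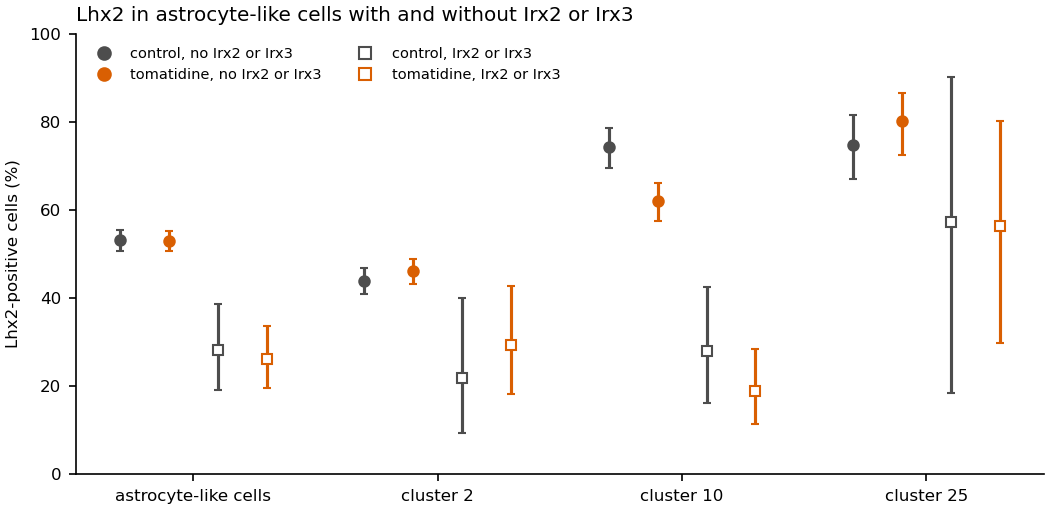
Share of Lhx2-positive cells (vertical axis, percent) among astrocyte-like cells with Irx2 or Irx3 (open squares) and without either (filled circles), for all astrocyte-like cells and for clusters 2, 10 and 25, with 95% binomial intervals for counting error. Over all astrocyte-like cells the shares with an Iroquois gene are 28.1% and 26.2%, and those without are 53.1% and 52.9%.

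Irx3 was also found in other glial and vascular cells, and whether it marks region in them was not tested. Oligodendrocyte precursor-like cells were positive for Irx3 at 10.7% and 13% and for Irx2 at 6.81% and 10.1%. Ependymal-like cells, which line the ventricles, were positive for Irx3 in 11 of 33 control and 9 of 15 tomatidine cells. Endothelial-like cells were at 11.1% and 6.19%, with median depths of 6124.5 and 4501 UMIs. Their log2 ratio of Irx3 was −0.54 (−1.23 to 0.14), which includes no difference. Ebf3 was found in 7.73% of control and 11.9% of tomatidine microglia-like cells. Unnamed cluster 11, with astrocyte markers raised and Slc6a11 leading, held Pou4f2 in 0.78% of 385 control and 8.82% of 533 tomatidine cells. Unnamed cluster 19, which shared its leading genes Tnnt1, Synpo2 and Prkcd with cluster 20, held Tcf7l2 in 80.9% and 81.1% of cells. Summed neuron markers were at 5297 and 6524 CPM in cluster 11, above its astrocyte markers at 1735 and 3255 CPM. Neuron markers were at 6609 and 6247 CPM in cluster 19, and the part of neuronal RNA in either cluster was not tested.

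Other regional genes, from lists that hold none of the 9 factors unless stated, were set beside them. Of 18 midbrain genes, 11 had enough UMIs in Slc17a6 neurons to be tested, 6 of them at least 2-fold higher and 1 at least 2-fold lower with tomatidine, with a median log2 ratio of 1.15. Tfap2b, a paralog of Tfap2d, had 283 and 1460 UMIs there, a log2 ratio of 1.35. Pou4f1, a paralog of Pou4f2, had 253 and 999 UMIs and a log2 ratio of 0.96, while Ebf1, a paralog of Ebf3, was near even at −0.03. In Gad neurons 12 midbrain genes were tested and 11 were at least 2-fold higher, with a median of 1.74. Those with the most UMIs were Gata3, at 704 and 2366, Otx2, at 463 and 1557, and Sox14, at 473 and 1484, all known from midbrain GABA neurons. The median of this list was higher with tomatidine in other classes too. In astrocyte-like cells 8 of 8 tested midbrain genes were higher, 4 at least 2-fold, with a median of 0.998. These rested on 210 control and 379 tomatidine UMIs, and the part of background RNA was not tested. In Slc17a7 neurons 7 of 10 were higher, 4 at least 2-fold, and 1 was at least 2-fold lower, with a median of 0.49. The summed UMIs of these 10 genes were lower, at 941 and 758, a log2 ratio of −0.12 (−0.26 to 0.02). Of all genes, 5.97% in Slc17a6, 3.11% in Gad and 2.1% in Slc17a7 neurons lay past 2-fold either way, and 1.34% in astrocyte-like cells. Of 10 genes of thalamus and habenula in Slc17a6 neurons, 8 were lower and 3 of these at least 2-fold, with a median of −0.76. Rora, an orphan nuclear receptor, had 4045 and 4601 UMIs there, a log2 ratio of −0.83, and Lhx9, a LIM homeodomain factor, was even at 0.02. The most unequal of the first 5 by UMIs was Prox1, at −1.40. The same list had 6 of 9 tested genes higher in Gad neurons, 4 at least 2-fold, and 3 lower, with a median of 0.31. Its median was 0.14 in Slc17a7 neurons, where 2 of 10 genes were at least 2-fold lower, and 0.21 in astrocyte-like cells. Of 10 prethalamus and hypothalamus genes, some of them also on other lists, 3 were tested in Slc17a6 neurons and all 3 were higher, with a median of 0.67, and in Gad neurons 4 of 6 were lower, with a median of −0.57. The 10 genes of the telencephalon list had a median of 0.15 in Slc17a6 neurons and −0.06 in Slc17a7 neurons.

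The list of subpallial interneuron genes was lower in tomatidine Gad neurons in 10 of 10 genes, with a median of −0.72. Lhx6, a gene of forebrain interneurons, had 1863 and 1729 UMIs there. The Iroquois family, of which Irx2 and Irx3 are members, had a median of 0.41 in Slc17a6 and 1.57 in Gad neurons. Irx1 had a log2 ratio of −0.63 in Slc17a6 and 1.09 in Gad neurons, and Irx5 had 0.68 and 2.05. In astrocyte-like cells, the list for astrocytes outside the telencephalon had a median of 0.28 over the 8 genes other than Irx2 and Irx3. Slc6a11, a GABA transporter, was at 1402 and 1843 CPM, Agt at 662 and 737 CPM, and Itih3 at 270 and 393 CPM. The telencephalic astrocyte list, without Lhx2, had a median of 0.06. The hippocampal lists in Slc17a7 neurons, which check the labelled tissue, were present in both libraries, with 96471 and 76662 UMIs for 5 dentate gyrus genes and 78453 and 72254 UMIs for 7 genes of the CA fields.

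The genes whose levels followed each factor most closely were found by Pearson correlation of log2(CPM + 1) over 64 points, each a cluster in 1 library with at least 50 cells. Points of the same library share depth and background, and points of the same cluster share cell type, so the values are descriptions. Irx2 was followed most closely by its family members Irx5 (0.90), Irx1 (0.90) and Irx3 (0.89). Tcf7l2 was followed by Shox2 (0.88), Lef1 (0.82) and Amotl1 (0.79). Among the genes that followed Pou4f2 were Tfap2b (0.82) and Pgr15l (0.80), and among those that followed Barhl1 were Slc6a5 (0.79) and Pou4f2 (0.76). Barhl2 was followed by Lhx5 (0.83), Uncx (0.80) and Mab21l2 (0.79), and Tfap2d by C1ql4 (0.86), Lhx5 (0.83) and Sox14 (0.82). Ebf3 was followed by Klhl1 (0.78), Tal1 (0.75) and Uncx (0.75). Lhx2 was followed by Mt3 (0.78), Tnfrsf19 (0.74) and Mfap3l (0.73), and its correlation with the other 8 factors ranged from −0.12 to 0.14. For some factors the nearest genes depended on the measure. By rank (Spearman) correlation the first was Sox14 (0.59) for Barhl1, Irx2 (0.63) for Barhl2 and Camk2a (0.75) for Lhx2. Tcf7l2 kept Lef1, Amotl1 and Shox2.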

How the data were processed

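The data were 10x Genomics fixed-RNA (probe-based) profiles of cells from flash-frozen hippocampi. The authors aligned reads to mm10 and deposited raw UMI count matrices with Cell Ranger, given as version 8.0.0 in the submitters' processing notes and 7.1.0 in the matrix header. Library totals were 279525565 (control) and 259059908 (tomatidine) UMIs, and 31097 cells were deposited. Cells with at least 500 UMIs, over 250 genes, complexity over 0.8 and under 20% mitochondrial UMIs were kept. Scrublet called 0 and 2 doublets and so had not worked, and the top 2% of its scores in each library were removed instead.

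Clustering used Seurat 5.3.0 in R 4.3.3 (RPCA integration, 2000 variable genes, 30 components, resolution 0.8), after leaving out 115 regional and transmitter genes, and gave 36 clusters, 5 of them unnamed. Clusters were named from lists of 8 markers per class by a rule set after the clusters were seen. Celf4, Cx3cr1 and Ly6c1 were not used here. Counts were summed in Python 3.11.15 with scipy 1.17.1. Shares carry exact Clopper-Pearson intervals, ratios conditional binomial intervals and differences of shares Newcombe intervals. Thinned shares are expected shares at 1500 UMIs per cell, without shallower cells (235 control and 200 tomatidine astrocyte-like cells, and 0 Slc17a6 neurons).

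Members and lists were chosen with earlier results of these data known. The text names the 9 members, the genes leading each cluster, the 3 genes most like each member and examples of each list. Some genes that this rule would name are not reported here. A single library stood for each group, so the groups were compared without a test. Alternatives changed the quality thresholds, doublet removal, resolution, scaling (with TMM factors of edgeR 4.0.16), transmitter call, positivity minimum and thinned depth. The scripts were tested on simulated data.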

Additional observations from a re-analysis of the deposited data

Results flagged for a closer look

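Irx2 and Tcf7l2 differed in opposite directions between the pools in different cell classes. The log2 ratio of tomatidine over control of Irx2 was 0.92 in Gad neurons, −1.0 in Slc17a7 neurons and −0.37 in Slc17a6 neurons. In Slc17a7 neurons, 319 of 354 control and 74 of 155 tomatidine UMIs of Irx2 lay in cluster 31. Over the alternatives the ratio ranged from −1.37 to −0.17 in Slc17a7 and from −0.52 to −0.06 in Slc17a6 neurons. That of Tcf7l2 was 0.15 in astrocyte-like cells and −0.49 in Slc17a6 neurons. With 1 library per group, the differences between classes were not tested.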

How the results depend on the processing

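Of 80 recomputed values of the main comparisons, 71 stayed close to the reported value (within its counting interval where it has one) and 9 moved further. The difference in Lhx2-positive astrocyte-like cells, whose interval includes 0, was 0.45 points with all deposited cells, 0.16 points at resolution 0.3 and 0.93 points at 2 or more UMIs. Under both sets of thresholds in the methods, which also drop cells with over 6000 genes, the tomatidine minus control difference was −6.24 points for the Slc17a7 share and 4.68 points for the Slc17a6 share. For astrocyte-like cells with Irx2 or Irx3 it was 1.16 points at 2 or more UMIs, 1.27 points at 1500 UMIs per cell and 1.04 points at 1000. The median of the thalamus and habenula list in Slc17a6 neurons was −0.81 with TMM factors, and that of the midbrain list in Gad neurons was 1.27 with no minimum of UMIs. Among alternatives chosen after seeing the data, leaving out cluster 26 gave 5.11 points for the Slc17a6 share, and astrocyte clusters with few neuron-marker UMIs gave −10.2 points for Lhx2. The log2 ratio of Lhx2 in Slc17a7 neurons changed sign, to −0.080 under both sets of thresholds and −0.0096 as a mean over cells, as did the difference of Irx3 in Slc17a6 neurons at 2 or more UMIs (−0.020 points). The cause was not tested. In Slc17a6 neurons the log2 ratio ranged over all alternatives from 4.33 to 4.88 for Pou4f2, 2.30 to 2.73 for Barhl1, 2.07 to 2.58 for Barhl2 and −0.58 to −0.42 for Tcf7l2. Results without barcodes found in both libraries stayed as close. No paired analysis was possible because each group had 1 library, and for the same reason no replicate could be left out. Counts of Pou4f2 and Barhl1 were 3 UMIs or fewer in control Gad neurons and astrocyte-like cells, so ratios with them are loose. Gad neurons had median depths of 22100 UMIs in the control and 19935 UMIs in the tomatidine library, and the part of depth was not tested.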
